A study of Mus musculus with 12 samples.

Results

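Neuropeptide and calcitonin gene-related peptide (CGRP) receptor genes were examined in mouse regulatory T cells (Treg): Calca, Calcb, Calcrl, Ramp1, Ramp2, Ramp3, Npy and Penk. Every non-control probe that the array files name for 1 of these 8 genes was taken, which gave 12 of 55681 probes, for 8 of 34821 gene names. The genes were selected on these same data, because Calca, Ramp3 and Npy were higher and Ramp1 lower after activation, so differences between activated and resting cells are described here and not tested. The comparison of genotypes did not choose the members and was tested.

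The cells were Treg sorted from the spleen of female C57BL/6 mice, and the 12 single-colour Agilent arrays fell into 4 groups of 3. The groups were CD83cKO Treg stimulated for 3 h through CD3 and CD28 by antibodies (KO at 3 h), non-activated CD83cKO Treg (KO at 0 h), CD83 WT Treg after the same 3 h of activation (WT at 3 h) and non-activated CD83 WT Treg (WT at 0 h). CD83cKO stands for a conditional knockout of Cd83, a surface glycoprotein of activated immune cells, and the labels name no Cre driver. Of the KO arrays at each time, 2 came from 10-week mice and 1 (replicate 3) from a 21-week mouse, whereas all WT mice were 9 weeks old. The design text lists 6 mice for the 12 arrays, so arrays may share a mouse, and p-values then measure only the spread between these arrays. The 6 KO arrays shared 1 slide, while WT Treg were hybridised to separate slides at 3 h and at 0 h. Genotype therefore cannot be told apart from slide, and neither can activation in WT Treg. Activation in KO Treg was measured within 1 slide. No group held cells kept for 3 h without stimulation, so in both genotypes stimulation cannot be told apart from the 3 h that passed.

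CGRP is a vasodilator peptide of sensory nerves that also acts on immune cells. Its receptor is a pair of proteins: the G protein-coupled receptor encoded by Calcrl and a single-pass partner encoded by a Ramp gene. With RAMP1 the pair binds CGRP best, and with RAMP2 or RAMP3 it binds adrenomedullin best; signalling runs mainly through Gs and cyclic AMP. Calca makes 2 messages by alternative splicing, one for the hormone calcitonin and one for CGRP, and Calcb encodes another CGRP. Npy encodes neuropeptide Y, a peptide of sympathetic nerves, and Penk encodes preproenkephalin, the precursor of the opioid peptides called enkephalins, which has been described in activated T cells and in Treg.

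The probes decide which message is read, so those that carry the results are given 5′ to 3′, with mm9 positions from the array design. The 2 Calca probes share no run longer than 5 bases: one is designed on transcript variant 2, the CGRP message (chr7:121775204-121775263, minus strand), and the other on variant 1, the calcitonin message (chr7:121776948-121777007, minus strand). The 2 Ramp3 probes share a run of 52 bases (chr11:6577416-6577475 for probe 1 and chr11:6577424-6577483 for probe 2, plus strand) and are close to 1 measurement made at 2 places on the array. One Ramp1 probe covers 60 bases that lie across 26256 bases of the genome (chr1:93093453-93119708, plus strand), so it reads spliced RNA, and the Npy probe likewise lies across 3763 bases (chr6:49773743-49777505, plus strand). The Ramp2 probe lies at chr11:101109501-101109560 (plus strand) and the Penk probe at chr4:4060724-4060783 (minus strand). A stretch of 30 of the 60 bases is printed for probes other than the spliced ones. Capitals mark a match to the letters of a polyadenylation signal, which does not by itself show that the site is used. In Npy they mark the codons for glycine, lysine and arginine that follow the mature peptide and direct its cleavage and amidation.
Calca, variant 2: gactctgtatccAATAAAcatgacagcatg
Calca, variant 1: aagaatggtatctgaaatccccagtgggtg
Ramp1, junction: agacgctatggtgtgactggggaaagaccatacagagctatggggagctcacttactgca
Ramp2: tgtagtctttaaAATAAAgttatgtttttg
Ramp3, probe 1: gtcagttctttttgATTAAAgtgtctcctt
Npy: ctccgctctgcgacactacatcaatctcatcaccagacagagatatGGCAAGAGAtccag
Penk: atctctcctgacgaaacatcAATAAAtgct

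Values are log2 of the processed signal minus that array's 75th percentile, taken over 19799 probes that every array measured well above background, so 0 stands for a fairly bright probe and each unit is a doubling. Levels of different probes cannot be compared. A probe entered the fit if it was well above background, by the scanner's own call, on all 3 arrays of at least 1 group, which 26261 probes and 10 of the 12 member probes did. The Calcb and Calcrl probes did not. Between 42.9% and 54.6% of probes were well above background per array, and no probe was saturated. A sample named sample 1 at 0 h was amplified from 20 ng of RNA in place of 40 ng, and its genotype is not stated. The targeted gene, Cd83, had 1.06, 1.07 and 1.92 on KO arrays at 3 h against 4.21, 3.69 and 3.65 on WT arrays (limma adjusted p = 0.00247), and 0.75, 0.29 and 0.23 on KO arrays at 0 h against 2.36, 2.17 and 2.39 on WT arrays (adjusted p = 0.00924); whether its probe lies in the deleted part is not known here. All 10 T cell markers were well above background on every array, and so were 7 of 8 Treg markers. The exception was Foxp3, the factor that defines Treg, whose brightest tested probe was well above background on all 3 KO arrays at 3 h and at 0 h, and on 0 of 3 WT arrays at either time. Both arrays of 21-week mice stood apart: the summed level of 8 Treg markers (the sum of their signals, each relative to the array's 75th percentile) was 4.81 at 3 h and 3.58 at 0 h on these, against 62.4 to 68.0 and 24.9 to 26.1 on the other KO arrays. The summed level of 6 plasma cell markers was 272 and 189 there, against 7.44 to 20.4 and 16.3 to 16.8. The main results are therefore also given without these 2 arrays.

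**Figure D1:**
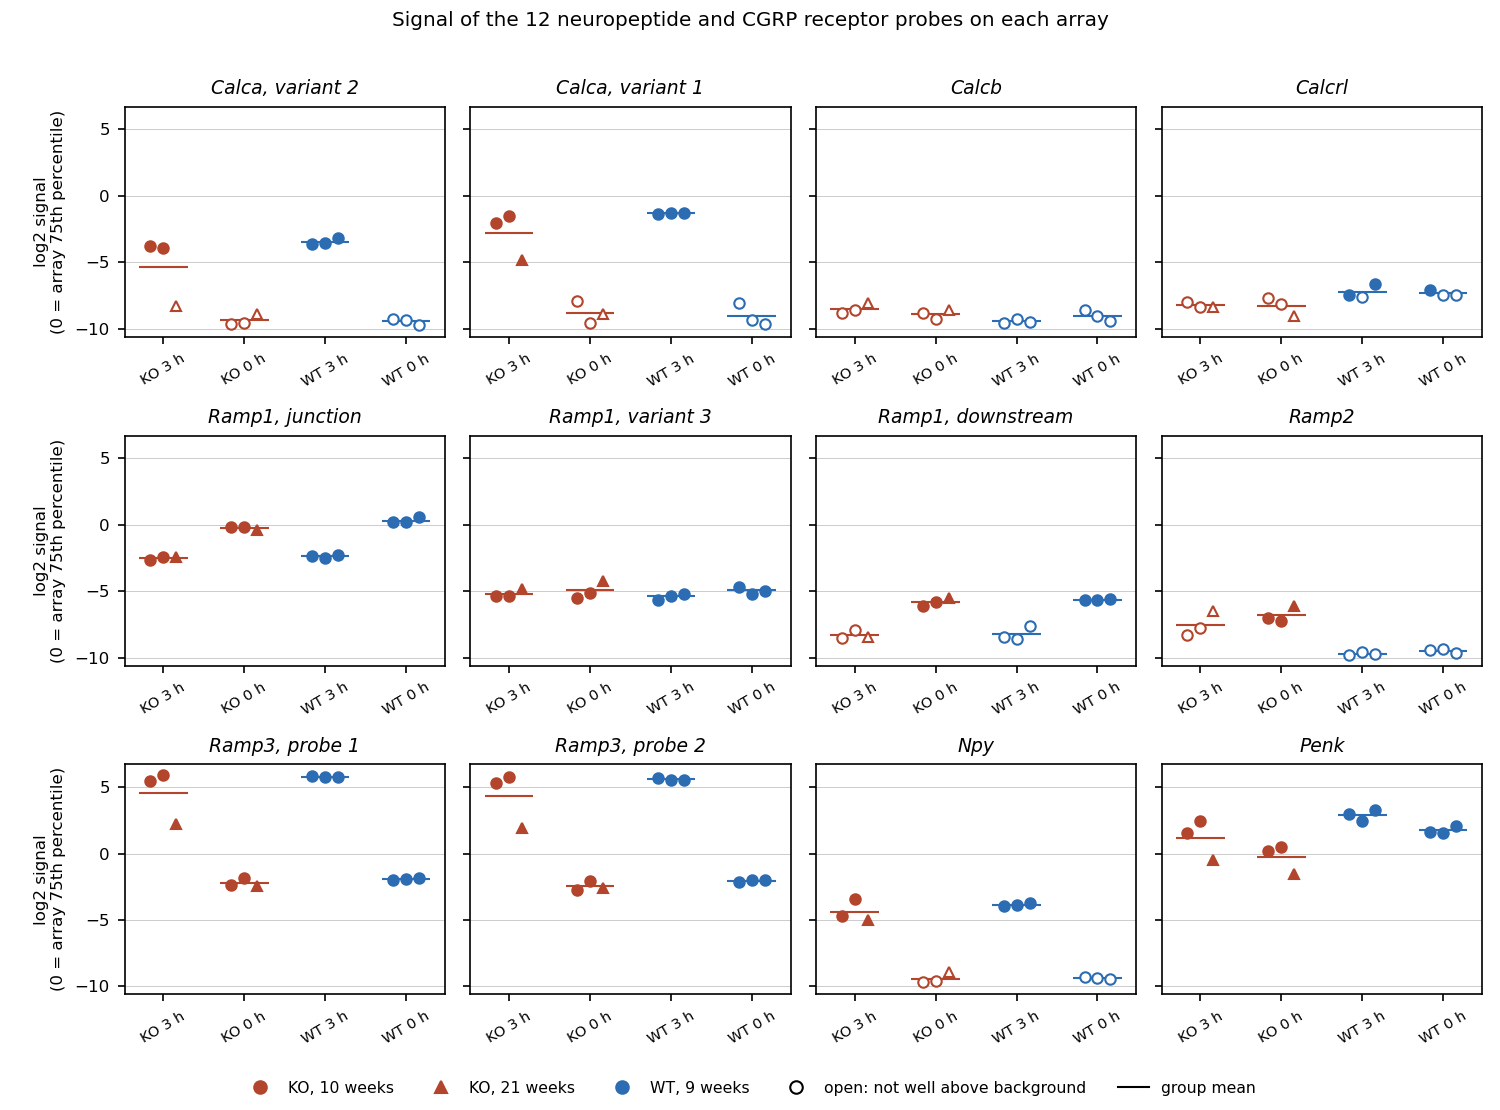
Normalized log2 signal (y axis, 0 is the array's 75th percentile) of the 12 member probes on each of the 12 arrays, by group (x axis). Circles are arrays of 9- or 10-week mice, triangles are arrays of 21-week mice, open symbols are values not well above background, and bars are group means; both Calca probes, both Ramp3 probes and Npy are higher at 3 h in both genotypes, and the KO triangle at 3 h is the lowest of its group for them.

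Activated Treg held far more Calca RNA than resting Treg, of both the CGRP and the calcitonin message. The CGRP message (variant 2) had values of -3.79, -3.93 and -8.30 on KO arrays at 3 h, against -9.61, -9.55 and -8.90 on KO arrays at 0 h. On WT arrays it had -3.63, -3.53 and -3.15 at 3 h, against -9.24, -9.32 and -9.70 at 0 h. All 6 arrays at 0 h were not well above background, and of the arrays at 3 h only the KO array of the 21-week mouse was not; 3 h and 0 h did not overlap in either genotype. Because the resting level is only a bound, the difference was at least 3.75-fold in KO, where 2 of 3 arrays measured the message, and at least 17.9-fold in WT.

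The calcitonin message (variant 1) had -2.01, -1.52 and -4.80 on KO arrays at 3 h and -7.91, -9.57 and -8.92 on KO arrays at 0 h. WT arrays gave -1.37, -1.32 and -1.28 at 3 h and -8.08, -9.32 and -9.65 at 0 h. All 6 arrays at 3 h measured it well above background, and 0 of 6 at 0 h, which puts it at least 22.1-fold higher at 3 h in KO and at least 77.3-fold higher in WT. With another background correction (normexp) the log2 differences were smaller, 2.84 in KO and 3.95 in WT for variant 1 and 1.66 and 2.45 for variant 2, all below those bounds. Without the 21-week array the measured difference in KO was 6.98 ± 0.61 for variant 1 and 5.72 ± 0.20 for variant 2 (standard error of the fit), against 6.02 ± 0.78 and 4.01 ± 0.96 with it; the WT differences were 7.70 ± 0.78 and 5.98 ± 0.96.

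Calcb, the gene of the other CGRP, gave no such signal. Its probe (chr7:121866534-121866593, plus strand, mm9) was not well above background on any of the 12 arrays, with values from -8.81 to -8.09 on KO arrays at 3 h, -9.27 to -8.56 on KO arrays at 0 h, -9.59 to -9.23 on WT arrays at 3 h and -9.40 to -8.57 on WT arrays at 0 h. The arrays of 3 h and 0 h overlapped in both genotypes, and no fold is given for either.

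Ramp3, the partner that turns the Calcrl protein towards adrenomedullin, was much higher after activation. Probe 1 had 5.49, 5.93 and 2.24 on KO arrays at 3 h, against -2.40, -1.82 and -2.45 on KO arrays at 0 h. WT arrays had 5.81, 5.78 and 5.76 at 3 h and -2.02, -1.91 and -1.84 at 0 h. Every array measured it well above background, and the lowest array at 3 h, that of the 21-week mouse, was still above the highest at 0 h. The mean difference was 6.77 ± 0.75 in KO (110-fold) and 7.71 ± 0.75 in WT (209-fold), and in KO 7.82 ± 0.21 (226-fold) without the 21-week arrays. Probe 2 gave 6.78 ± 0.78 in KO, or 7.93 ± 0.23 without the 21-week arrays, and 7.65 ± 0.78 in WT. The 3 WT arrays at 3 h had an SD of 0.03 for probe 1, so the spread in the KO group came from the single 21-week array, which also had the lowest summed level of the 10 T cell markers of all 12 arrays (20.7, against 98.2 to 105 on the other KO arrays at 3 h); the part of cell composition in the result was not tested.

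Ramp1, the partner that makes the CGRP receptor, moved the other way. The junction probe had -2.62, -2.43 and -2.44 on KO arrays at 3 h, against -0.17, -0.19 and -0.38 on KO arrays at 0 h. WT arrays had -2.37, -2.51 and -2.28 at 3 h and 0.17, 0.23 and 0.54 at 0 h. All 12 arrays measured it, 3 h and 0 h did not overlap, and the 21-week array lay between the other KO arrays at 3 h and was the lowest KO array at 0 h. Its level was 4.75-fold lower at 3 h in KO (-2.25 ± 0.16) and 6.50-fold lower in WT (-2.70 ± 0.16), and in KO the difference was -2.34 ± 0.16 without the 21-week arrays.

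The other Ramp1 probes were designed on transcript variant 1, like the junction probe, and on transcript variant 3. The probe downstream of the junction, on the same transcript (chr1:93121428-93121487, plus strand), was well above background on all 6 arrays at 0 h and on 0 of 6 at 3 h. It was at least 1.67-fold lower at 3 h in KO and at least 3.66-fold lower in WT, but only by -0.36 and -0.81 on the log2 scale with normexp, the other background correction, which is less than these bounds. The probe for transcript variant 3 (chr1:93103294-93103353, plus strand), which lies inside the interval that the junction probe spans, had -5.40, -5.36 and -4.83 on KO arrays at 3 h against -5.49, -5.13 and -4.23 at 0 h, and -5.63, -5.34 and -5.23 on WT arrays at 3 h against -4.66, -5.21 and -4.96 at 0 h. These groups overlapped in KO and lay just apart in WT, with differences of -0.25 ± 0.31 and -0.46 ± 0.31. The fall of Ramp1 was therefore measured on the 2 probes designed on variant 1, and the probe designed on variant 3 moved by less than 1 log2 unit. Whether each probe reads only the transcript it was designed on is not known here.

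Calcrl, which encodes the receptor protein of the CGRP and adrenomedullin pairs, was close to the limit of the arrays. Its probe (chr2:84173073-84173132, minus strand) was well above background on 2 of 3 WT arrays at 3 h and 1 of 3 at 0 h, and on 0 of 6 KO arrays. The KO values ran from -8.37 to -8.01 at 3 h and from -9.001 to -7.65 at 0 h, and the WT values from -7.59 to -6.65 at 3 h and from -7.49 to -7.06 at 0 h. The measured difference between 3 h and 0 h was 0.01 in KO and 0.09 in WT, with overlapping arrays. Neither a fold nor a test is given for a probe at this level.

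Ramp2, the other adrenomedullin partner, was near background in every group. Its values were -8.33, -7.81 and -6.51 on KO arrays at 3 h, -7.03, -7.26 and -6.15 on KO arrays at 0 h, -9.82, -9.56 and -9.72 on WT arrays at 3 h and -9.43, -9.32 and -9.67 on WT arrays at 0 h. All 3 KO arrays at 0 h measured it well above background and 0 of the other 9 did, and the 3 h and 0 h arrays overlapped in both genotypes. The lowest signals that counted as well above background on the 3 KO arrays at 0 h were -7.46, -7.53 and -6.76, close to those of Ramp2.

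Npy was read only in activated cells. Its probe had -4.71, -3.46 and -4.97 on KO arrays at 3 h, against -9.67, -9.61 and -8.95 on KO arrays at 0 h. WT arrays had -3.95, -3.89 and -3.75 at 3 h and -9.32, -9.37 and -9.44 at 0 h. All 6 arrays at 3 h were well above background and 0 of 6 at 0 h, so Npy was at least 7.32-fold higher at 3 h in KO and at least 13.3-fold higher in WT. With normexp the log2 difference was 1.79 in KO and 1.91 in WT, below those bounds. Without the 21-week arrays the measured difference in KO was 5.56 ± 0.33, against 5.03 ± 0.35 with them. Megakaryocytes and platelets are known to store neuropeptide Y in mice: the summed level of the 4 measured of 6 markers was 0.0396 to 0.442 on KO arrays at 3 h against 0.210 to 1.20 at 0 h, and 0.0350 to 0.0534 on WT arrays at 3 h against 0.0369 to 0.0680 at 0 h. On WT arrays 2 to 3 of these 4 were well above background, and the part of such cells in the result was not tested. Of 9 nerve and Schwann cell markers, 3 were measured, with a summed level of 0.0511 to 0.179 on KO arrays at 3 h against 0.0841 to 0.0991 at 0 h, and of 0.0403 to 0.0474 on WT arrays at 3 h against 0.0798 to 0.101 at 0 h.

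Penk was present in resting and activated Treg alike and differed least among the members that were higher at 3 h. The probe had 1.56, 2.47 and -0.47 on KO arrays at 3 h and 0.16, 0.47 and -1.52 on KO arrays at 0 h. WT arrays had 2.96, 2.41 and 3.30 at 3 h and 1.65, 1.52 and 2.06 at 0 h. The 3 h arrays lay above the 0 h arrays in WT and overlapped in KO, where the 21-week array was the lowest at both times. Such separation was common in WT, at 67.7% of all tested probes against 24.3% in KO. The mean difference was 1.48 ± 0.71 in KO, or 1.70 ± 0.37 without the 21-week arrays, and 1.15 ± 0.71 in WT (2.22-fold). Another probe, for a cDNA that the array design describes as preproenkephalin (A830012C17Rik, chr4:4115784-4115843, mm9), was well above background on 0 of the 12 arrays.

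**Figure D2:**
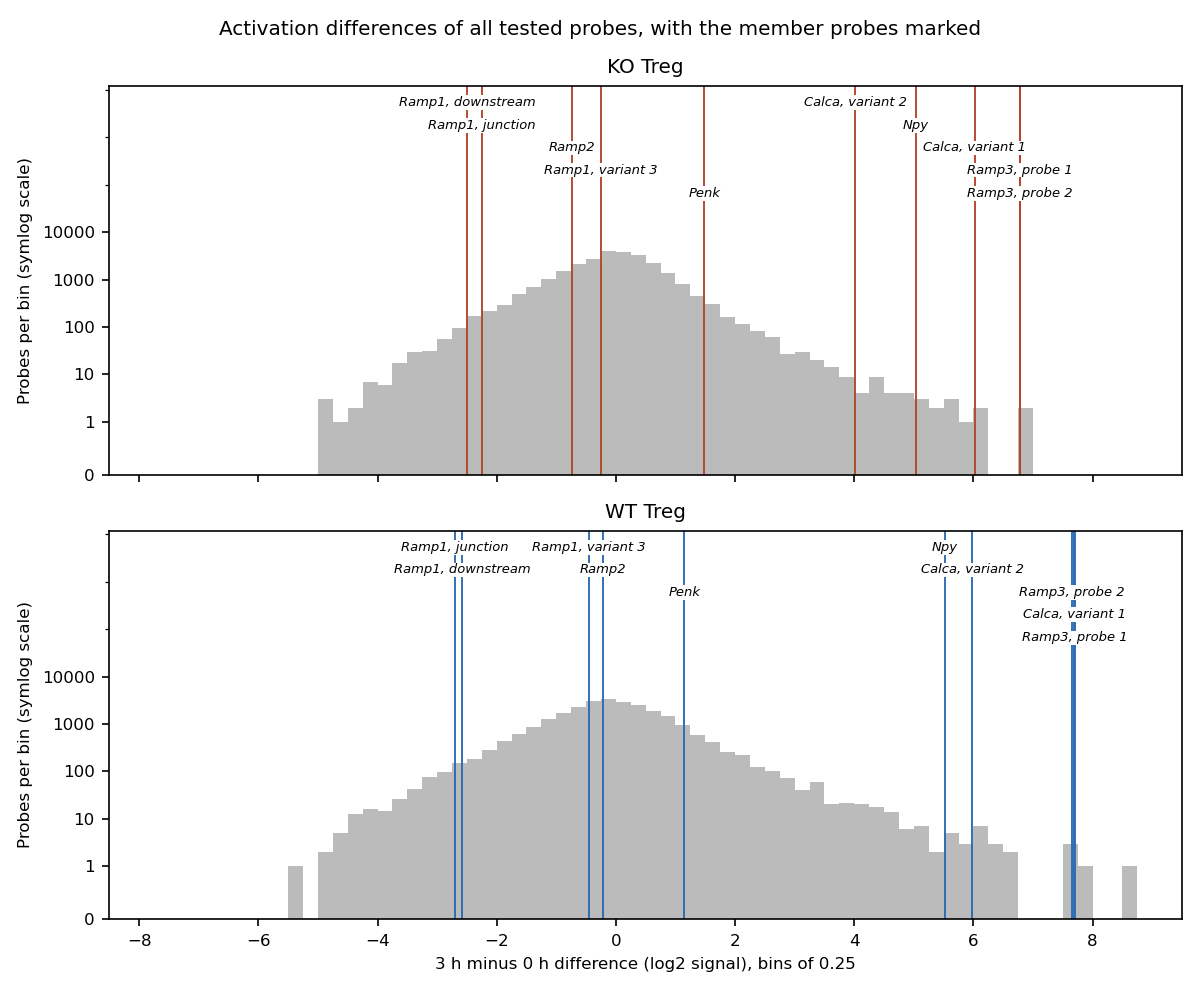
Number of tested probes (y axis, symlog scale) by their difference between 3 h and 0 h (x axis, log2 signal, bins of 0.25) in KO and in WT Treg, with a line for each of the 10 tested member probes. The Ramp3, Calca and Npy lines stand in the right tail of both panels, those of Calca and Npy measured against resting values that were not above background, and the lines of the Ramp1 variant 1 probes stand in the left tail, at -2.25 and -2.49 in KO and -2.70 and -2.58 in WT.

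Counted together, 5 of the 10 tested member probes, of 3 genes, were more than 1 log2 unit higher at 3 h in KO with no overlap between arrays, and 6 probes, of 4 genes, in WT. The same rule held for 5.02% of all tested probes in KO and 11.1% in WT. It held in the other direction for 2 member probes, both of Ramp1, in each genotype, and for 6.66% of all probes in KO and 14.7% in WT. With no limit on size, 7 of the 10 member probes in KO and 9 in WT did not overlap, against 24.3% and 67.7% of all tested probes. The median difference over the 10 probes was 2.75 in KO and 3.33 in WT, against -0.02 and -0.10 over all tested probes. Since the members were chosen on activation, these shares describe them and support nothing.

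The size of the activation difference was set side by side for the genotypes, with no test. KO minus WT, the difference of the differences was -1.97 ± 1.35 for Calca variant 2, -1.67 ± 1.10 for variant 1, -0.93 ± 1.06 and -0.87 ± 1.11 for the Ramp3 probes and -0.49 ± 0.50 for Npy. Without the 21-week arrays these values were -0.26 ± 0.26, -0.72 ± 0.78, 0.11 ± 0.27, 0.28 ± 0.30 and 0.04 ± 0.43. Against the mean of KO at 0 h, the 2 KO arrays of 10-week mice stood 7.71 and 8.15 higher at 3 h for Ramp3 probe 1, and the 21-week array 4.46 higher. WT arrays stood 7.74, 7.71 and 7.68 above the WT mean at 0 h. For Ramp1 the junction probe differed by 0.45 ± 0.22, with KO minus WT at -0.11 at 3 h and -0.56 at 0 h, neither of them called in the main fit. With no scaling between arrays its difference of the differences was 0.07.

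Whether the loss of Cd83 goes with a different level of these genes was tested in resting and in activated Treg. At 0 h, Ramp2 was higher in KO and was the only member probe called, with 1 of 10 higher and 0 lower at a limma adjusted p under 0.05. Over all tested probes, 1.63% were called higher and 0.187% lower, and an unadjusted p under 0.05 was reached by 3 of the 10 member probes and by 14.1% of all probes. Ramp2 entered the fit only through KO at 0 h, the group in which it was highest, so the call rests on a filter that it passed for that reason. With no filter its limma adjusted p was 0.0270. It was at least 1.72-fold higher in KO, with a measured difference of 2.66 ± 0.43 (adjusted p = 0.0140) and no overlap between the 3 KO and the 3 WT arrays. Without the 21-week array the difference was 2.33 ± 0.18 (limma adjusted p = 0.00276). The call was lost with another background correction (normexp, 0.41, limma adjusted p = 0.538). That difference is below the bound of 1.72-fold, which is 0.78 on the log2 scale, so the bound does not hold under normexp. The call was also lost without WT replicate 1 or replicate 3 (limma adjusted p = 0.0668 and 0.0768).

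Markers of other cells were higher on the same KO arrays. In the spleen Ramp2 is known from endothelial cells: 7 of 11 endothelial markers were measured, their summed level was 1.72 to 3.71 on KO arrays at 0 h against 0.785 to 0.912 on WT arrays, and all 7 were well above background on every KO array against 5 of 7 on each WT array. Stab2, a scavenger receptor of sinusoidal endothelium, was the only 1 of the 7 that limma called at 0 h (2.49, adjusted p = 0.00642), while Pecam1 and Kdr each differed by -0.17. Cdh5, Tek, Tie1 and Emcn, further defining genes of that type, were not bright enough to be tested. The summed level of 10 macrophage markers was 25.9 to 37.8 on KO arrays at 0 h and 5.07 to 8.91 on WT arrays. The part of these cells in the Ramp2 difference was not tested, and in RNA from sorted cells fewer cells of a type and less RNA per cell cannot be told apart.

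Among the tested probes, the Ramp1 junction probe and Penk were the others whose arrays did not overlap between the genotypes at 0 h. They were 3 of the 10 tested member probes together with Ramp2, against 29.2% of all tested probes. The Calcrl probe, which was not tested, was also lower on every KO array than on every WT array at 0 h and at 3 h, at values near background. The Ramp1 junction probe averaged -0.25 ± 0.12 in KO and 0.31 ± 0.20 in WT (SD, n = 3 each), a difference of -0.56 ± 0.16 that did not pass (limma adjusted p = 0.120), or -0.50 ± 0.14 without the 21-week array (limma adjusted p = 0.0842). Penk averaged -0.30 ± 1.07 in KO and 1.74 ± 0.28 in WT (SD, n = 3 each), a difference of -2.04 ± 0.71 (limma adjusted p = 0.221), or -1.43 ± 0.34 (limma adjusted p = 0.0523) without the 21-week array. With arrays weighted by their quality both were called lower in KO, Ramp1 at -0.56 (limma adjusted p = 0.0279) and Penk at -1.45 (limma adjusted p = 0.0347). The other 7 tested probes differed by 0.39 or less at 0 h, with overlapping arrays.

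At 3 h, Ramp2 was again the single call, with 1 of 10 member probes higher and 0 lower. Among all tested probes 1.1% were called higher and 0.164% lower, and 2 of the 10 member probes, against 10.1% of all probes, had an unadjusted p under 0.05. The measured difference was 2.15 ± 0.43 (limma adjusted p = 0.0411), but the probe was not well above background on any of the 6 arrays, so no fold is given. Over the 19033 probes that were well above background on no array, KO minus WT had a median of 0.96 at 3 h and 0.12 at 0 h, and the range from the 5th to the 95th percentile at 3 h was 0.27 to 1.43. The call at 3 h was lost under 14 of 21 other settings, 4 of them another scaling, background correction or the authors' deposited log2 values and 10 the loss of a single array (limma adjusted p from 0.0530 to 0.330). It held without both 21-week arrays (1.63 ± 0.18, limma adjusted p = 0.00765).

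None of the probes of Calca, Ramp3 and Npy was called between the genotypes at 3 h. All 3 KO arrays lay below all 3 WT arrays for both Calca probes, and the arrays overlapped for Ramp3 and Npy. With Ramp2, 3 of the 10 tested member probes did not overlap at 3 h, against 18.5% of all tested probes. Calca variant 2 averaged -5.34 ± 2.56 in KO and -3.43 ± 0.25 in WT at 3 h (SD, n = 3 each; limma adjusted p = 0.539). Ramp3 probe 1 averaged 4.55 ± 2.02 in KO and 5.79 ± 0.03 in WT (SD, n = 3 each; limma adjusted p = 0.590). Without the 21-week array the differences were -0.42 ± 0.18 for Calca variant 2, -0.45 ± 0.55 for variant 1, -0.08 ± 0.19 and -0.06 ± 0.21 for the Ramp3 probes and -0.22 ± 0.30 for Npy, with limma adjusted p from 0.420 to 0.967. Penk differed by -1.71 ± 0.71 (limma adjusted p = 0.451), or by -0.88 ± 0.34 (limma adjusted p = 0.343) without that array. Over the 10 member probes the median of KO minus WT was -0.88 at 3 h and -0.11 at 0 h, against 0.02 and -0.03 over all tested probes. Both medians include the 21-week arrays and count both Ramp3 probes. Without the 21-week array the differences of Calca, Ramp3, Npy and Penk at 3 h were smaller, as given above.

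**Figure D3:**
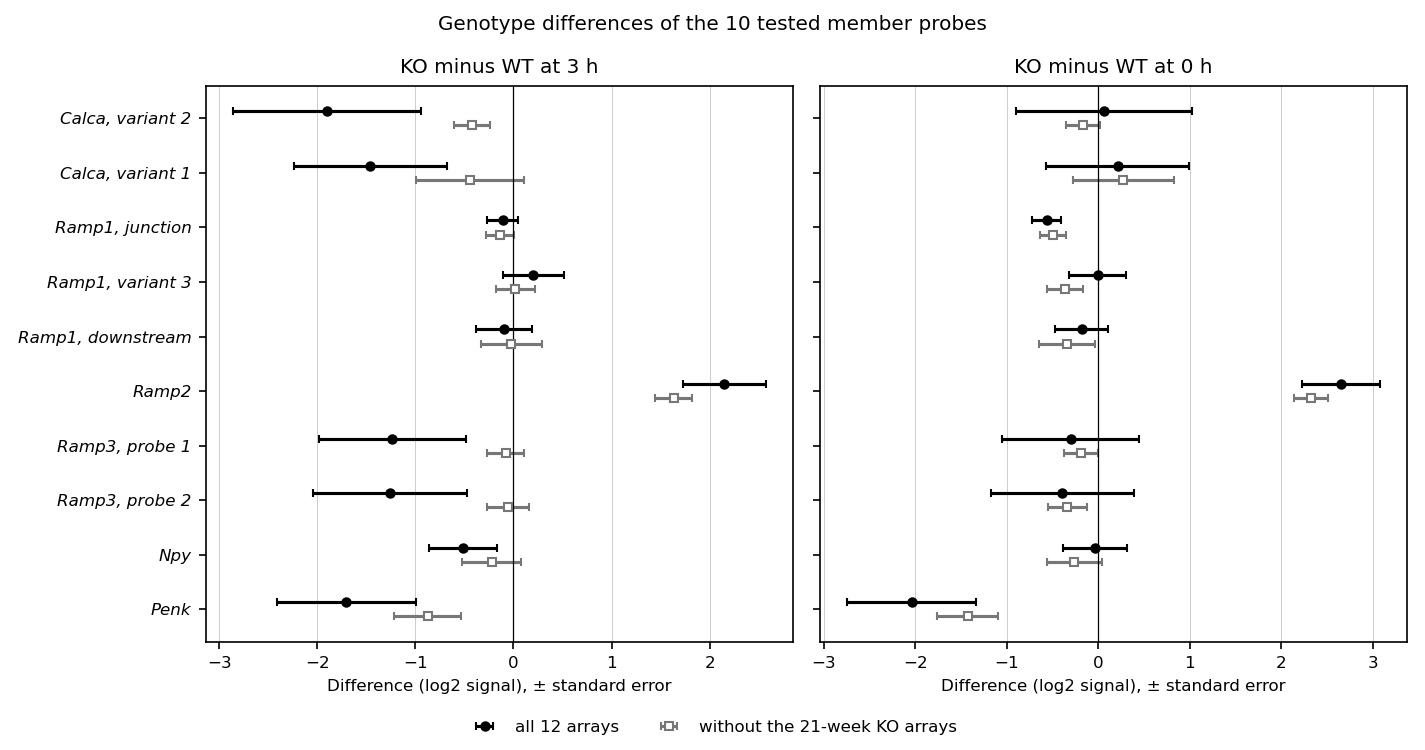
KO minus WT differences (x axis, log2 signal, bars are the standard error of the fit) of the 10 tested member probes at 3 h and at 0 h, from all 12 arrays and without the 21-week KO arrays. Ramp2 stands right of 0 in both panels, and the Ramp3 and Calca variant 2 differences at 3 h shrink towards 0 without the 21-week array.

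Genes around the members were taken from 7 lists of the same pathways. Of 7 other genes of the calcitonin family, 3 were bright enough to be tested and 0 were called between the genotypes (limma, 0 h and 3 h). Adm, which encodes adrenomedullin, differed by 0.20 ± 0.69 at 3 h and 0.99 ± 0.69 at 0 h. Gpr182, an atypical chemokine receptor once thought to bind adrenomedullin, differed by 1.45 ± 1.09 at 3 h and 1.85 ± 1.09 at 0 h. On activation the Gpr182 arrays overlapped in both genotypes, with 1 of 3 KO arrays well above background at 3 h against 3 of 3 at 0 h and 0 of 3 WT arrays against 1 of 3, and no fold is given. Adm differed by -0.35 in KO and 0.45 in WT, and Crcp, named for its part in CGRP receptor signalling, by -0.24 in KO and -0.44 in WT.

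Among 18 tested of 24 genes of the Gs, adenylyl cyclase and protein kinase A pathway, 1 was called between the genotypes. Prkar1b, a regulatory subunit of protein kinase A, was higher in KO at 3 h (1.51 ± 0.28, limma adjusted p = 0.0317) and differed by 0.69 ± 0.28 at 0 h (limma adjusted p = 0.300). Without the 21-week arrays Prkar1b differed by 1.40 at 3 h (limma adjusted p = 0.0471), and Rapgef3, the cyclic AMP sensor Epac1, and Prkar2a, a further regulatory subunit named after its values were seen, were called higher at 0 h (1.22 and 0.95, limma adjusted p = 0.0361 and 0.0203). On activation 1 of the 18 genes was more than 1 log2 unit higher without overlap in KO and 2 in WT, and 4 in KO and 3 in WT were lower. Over all tested probes 5.02% in KO and 11.1% in WT were higher by this rule, and 6.66% and 14.7% were lower. These few genes are described and not tested as a set. Prkar1a, another regulatory subunit, differed by 1.34 in KO and 1.69 in WT, and Prkar1b by -1.67 and -2.49. Adcy7, an adenylyl cyclase of blood cells, differed by -1.43 in KO and -2.01 in WT. For Rapgef3 the differences were 0.45 in KO and 1.95 in WT, with a standard error of 1.36.

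All 7 receptor kinases and arrestins, which switch off receptors of this class, were tested. Grk3 was higher in KO, by 2.74 ± 0.31 at 3 h (limma adjusted p = 0.00306) and by 2.53 ± 0.31 at 0 h (limma adjusted p = 0.00653), and the other 6 were not called. Without the 21-week arrays Grk3 differed by 2.52 at 3 h and 2.55 at 0 h (limma adjusted p = 0.0128 and 0.00867). On activation Arrb2 differed by -1.46 in KO and -1.70 in WT, Grk6 by -1.26 and -1.37, Grk2 by -0.73 and -0.96, and Grk5 by 0.88 and 1.21.

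Of 10 genes for neuropeptide Y and opioid receptors only 3 were bright enough to be tested, and 0 were called by limma at 0 h or 3 h. None of the 5 neuropeptide Y receptor genes was among them. Oprm1, the mu opioid receptor, differed between KO and WT by 0.57 ± 0.27 at 3 h and -0.37 ± 0.27 at 0 h. Ogfr, the opioid growth factor receptor, differed by -0.14 ± 0.13 and -0.38 ± 0.13. On activation Oprm1 differed by 0.02 in KO and -0.92 in WT, Oprl1, the nociceptin receptor, by -0.51 and -0.80, and Ogfr by 0.31 and 0.08, so 0 of the 3 passed 1 log2 unit.

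Other neuropeptide genes were set beside Calca and Npy, which were chosen because they were higher after activation. Of 23 other precursor genes 5 were tested: 0 were more than 1 log2 unit higher at 3 h without overlap in KO or in WT, and 1, Nmb (neuromedin B), was lower in WT (-1.02, against -0.50 in KO). Over all tested probes 5.02% in KO and 11.1% in WT were higher by this rule, and 14.7% in WT were lower. The counts therefore do not set these 5 genes apart from other probes. Gal, Cort and Tac2, which encode galanin, cortistatin and a tachykinin, differed by -0.13, -0.49 and -1.96 in KO and -0.84, -0.63 and -0.60 in WT. Limma called 0 of the 5 between the genotypes; Nmb differed by -0.45 ± 0.25 at 3 h and -0.98 ± 0.25 at 0 h (limma adjusted p = 0.0931), or by -0.67 at 0 h without the 21-week array (limma adjusted p = 0.0303), and Tac2 by 2.30 ± 1.35 and 3.66 ± 1.35. Of 23 other neuropeptide receptor genes 6 were tested and 0 were called by limma between the genotypes, with Galr3, a galanin receptor, at -1.13 ± 0.41 at 3 h and -1.41 ± 0.41 at 0 h, and Sstr4, a somatostatin receptor, at 0.27 ± 0.41 at 0 h; at 3 h Sstr4 was well above background on 0 of the 6 arrays. Without the 21-week arrays Vipr1, a receptor for vasoactive intestinal peptide named here after its values were seen, was called higher at 0 h (0.90, limma adjusted p = 0.0385). Vipr2, another receptor for that peptide, was at least 3.26-fold lower at 3 h in KO and at least 4.66-fold lower in WT. Galr3 and Tacr2, a tachykinin receptor, differed by -1.01 and -0.06 in KO and -1.29 and -1.07 in WT. Sstr4 was at least 1.70-fold lower in WT, while its KO arrays overlapped.

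Peptide precursors are cut by proprotein convertases and trimmed by peptidases, and 14 of 21 such genes were tested. Anpep, the surface aminopeptidase CD13, which breaks down enkephalins and is also a marker of myeloid cells, was higher in KO, by 2.18 ± 0.33 at 3 h (limma adjusted p = 0.00994) and by 2.22 ± 0.33 at 0 h (limma adjusted p = 0.0107). It was the single call of this list at either time. Without the 21-week arrays Anpep was still called higher at 3 h and 0 h (limma adjusted p = 0.00681 and 0.00754), by 1.82 at 0 h, and Cpe, carboxypeptidase E, which trims neuropeptide precursors and is named here after its values were seen, was called lower in KO, by -0.79 at 3 h and -1.07 at 0 h (limma adjusted p = 0.0353 and 0.00876). The macrophage marker sums were higher on the same arrays, at 7.63 to 12.6 on KO arrays at 3 h against 1.24 to 1.91 on WT arrays; their part in the result was not tested. On activation Pcsk1, a convertase of hormone and neuropeptide precursors, was well above background on all 3 WT arrays at 3 h and on 0 of 3 at 0 h, at least 2.07-fold higher. In KO it was above it on 0 of 3 arrays at 3 h and 1 of 3 at 0 h, and no fold is given. Scg3, a secretory granule protein, averaged -6.04 at 3 h and -7.33 at 0 h in KO, and -6.31 at 3 h and -7.81 at 0 h in WT. Pcsk4 and Scg5, a chaperone of the convertase encoded by Pcsk2, differed by -2.35 and -1.31 in KO and by -3.17 and -1.89 in WT.

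**Figure D4:**
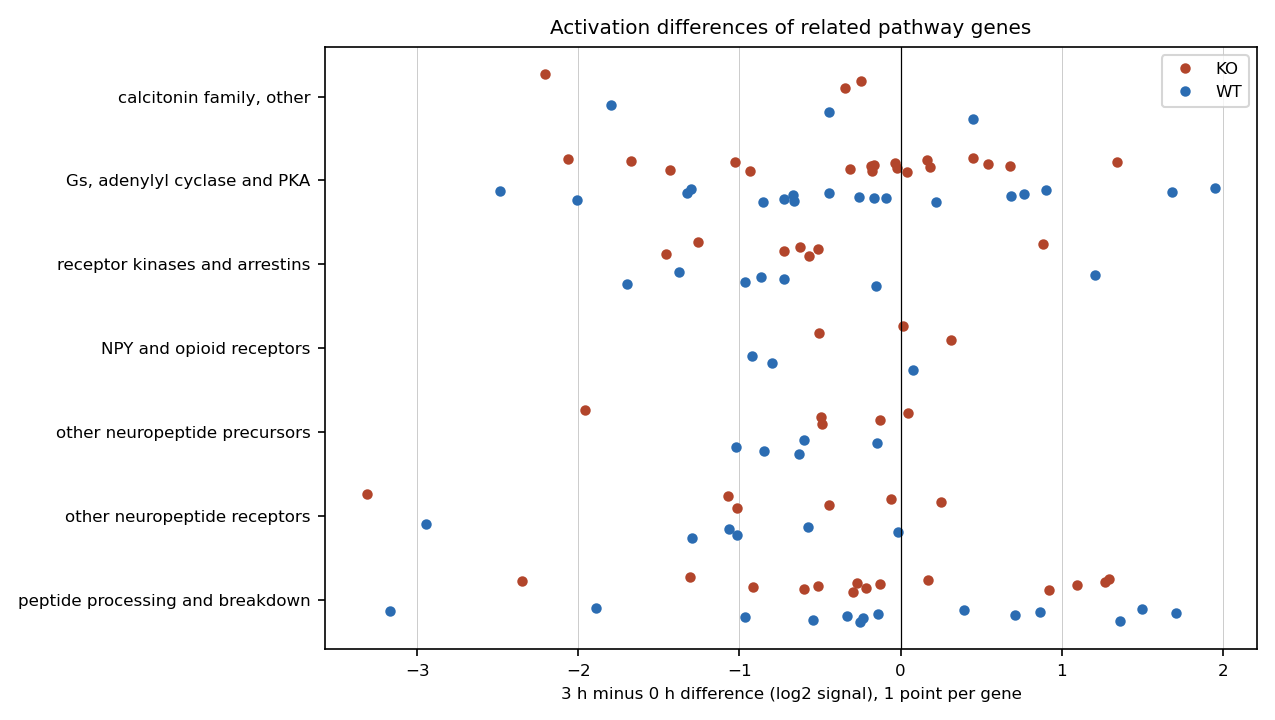
Differences between 3 h and 0 h (x axis, log2 signal) of the tested genes of 7 related lists, 1 point per gene, in KO (upper points of each row) and WT (lower points). Points lie on both sides of 0 in most lists, and 0 of these genes reached 2 log2 units above 0 in either genotype.

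The genes whose signal followed the members most closely over all 12 arrays were taken from 13848 other named genes, and the correlations are descriptions of arrays that share their groups. For Ramp3 the closest was Crem, a transcription factor of the cyclic AMP response (r = 0.998, and 0.999 over the 10 arrays of 9- and 10-week mice), followed by Spata2 (0.997) and Coq10b (0.996). Crem was also among the 3 closest to Calca variant 1 (0.990), after Ago2, a protein of microRNA silencing (0.991), and C9orf72 (0.991). Npy was followed by Ric1 (0.996), Sult2b1, a sulfotransferase (0.993), and Gm15645 (0.993). For the Ramp1 junction probe these were Trnau1ap (0.995), Dusp7, a phosphatase of MAP kinases (0.992), and Eya2 (0.991). Ramp2 was followed by Slc45a3 (0.985), Cebpd, a transcription factor (0.979), and Nfasc (0.976). For Penk these were Gm3424 (0.971), Tnfrsf1b, the TNF receptor TNFR2 (0.966), and Tnfrsf4, the costimulatory receptor OX40 (0.965), with 0.931, 0.929 and 0.911 over the 10 arrays.

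Because Calca and Ramp3 moved together, the 250 bases before their start sites were read (RefSeq, GRCm38.p6), at chr7:114636358-114636607 (minus strand) for Calca and chr11:6658283-6658532 (plus strand) for Ramp3. A promoter was given for 5 of the 8 genes, and both strands of each were searched for the cyclic AMP response element TGACGTCA, its core TGACG, which is part of the full site, the AP-1 site TGANTCA, the NFAT core GGAAA and the TATA box TATAAA. Calca held 1 copy of TGACG, 65 to 61 bases before the start, given in capitals, and 1 NFAT core; TGACG is present in 17.8% of 32851 promoters of the same length and the NFAT core in 55.6%. Neither Ramp3 nor Npy held any of the 5 motifs, and Ramp1 and Calcrl held 2 NFAT cores each. The full response element, the AP-1 site and the TATA box, which stand in 1.55%, 6.75% and 12.4% of promoters, were in 0 of the 5 windows.
Calca: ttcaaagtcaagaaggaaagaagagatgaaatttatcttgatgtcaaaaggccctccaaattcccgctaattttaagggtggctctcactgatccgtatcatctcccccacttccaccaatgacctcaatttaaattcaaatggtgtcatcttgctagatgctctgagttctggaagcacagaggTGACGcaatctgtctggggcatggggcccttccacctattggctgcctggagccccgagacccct
Ramp3: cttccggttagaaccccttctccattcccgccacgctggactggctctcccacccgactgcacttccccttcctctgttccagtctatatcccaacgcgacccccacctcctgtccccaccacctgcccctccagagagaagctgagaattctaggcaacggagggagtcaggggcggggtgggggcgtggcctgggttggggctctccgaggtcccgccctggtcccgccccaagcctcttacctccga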

How the data were processed

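The deposited scanner files, 1 per array, hold spot intensity on a linear scale, and per the file headers the signal is background-subtracted and spatially detrended (Agilent Feature Extraction, version 10.7.3.1; version 11 per the submitters' processing notes). A table of log2 values deposited by the authors, whose scaling the sources used here do not give, served as an alternative. Control spots and outlier spots were dropped, spots of a probe were averaged on the log2 scale, and the 75th percentile of the probes that every array measured well above background was subtracted on each array, since fewer than 50% of probes were detected on average. All 12 arrays were fitted in 1 model of the 4 group means by lmFit and eBayes (limma 3.58.1, R 4.3.3, two-sided), with Benjamini-Hochberg adjustment over all tested probes and a threshold of 0.05. On simulated data the fit was checked to recover known changes. An "at least" fold sets the bright group's mean against the higher of the lowest signal well above background and the dim probe's own signal, per array. The number of arrays limits the precision.

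The members, lists and motifs were chosen with earlier results of these data known. From each list, the text names up to 4 called genes, or the 2 with the largest genotype difference where none was called, and the 4 with the largest activation difference in WT; a listed gene is read by its brightest tested probe. Alternatives covered scaling, background correction, filters, the deposited log2 table, 1 probe per gene, array weights, the 21-week arrays and leaving out each array.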

Additional observations from a re-analysis of the deposited data

How the results depend on the processing

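The activation differences of Calca, Ramp3, Npy and the Ramp1 variant 1 probes kept their direction under every alternative run. Their sizes did not all hold: with normexp, Npy was 1.79 in KO and 1.91 in WT, Calca variant 2 1.66 and 2.45, variant 1 2.84 and 3.95 and the downstream Ramp1 probe -0.36 and -0.81. The number of member probes past 1 log2 unit without overlap, 7 in KO and 8 in WT, was 3 and 4 with a strict filter (every array well above background). The probes of Calca and Npy and the downstream Ramp1 probe then drop out. With 1 probe per gene the number was 4 in KO and 5 in WT. The single call at 0 h became 0 with normexp and with the strict filter and 3 with array weights, and ranged from 0 to 1 when single arrays were left out (0 without WT replicate 1 or 3). The single call at 3 h became 0 with quantile normalization, the percentile over all probes, normexp, the strict filter and the deposited table, and ranged from 0 to 1 with single arrays left out. The cause was not tested.

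Some uncalled genotype differences near 0 changed sign. Calca variant 2 at 0 h was -0.0441 with quantile normalization, -0.0442 with the deposited table, -0.12 with the percentile over all probes, -0.0577 with array weights and -0.16 without the 21-week arrays. Calca variant 1 at 0 h was -0.24 with quantile normalization, -0.25 with the deposited table and -0.00199 with normexp. At 3 h the Ramp1 variant 3 probe was -0.20 with no shift, -0.18 with quantile normalization and -0.21 with the deposited table, and the downstream Ramp1 probe was 0.34 with normexp and 0.0315 with array weights. With single arrays left out, values at 0 h ranged from -0.16 to 0.19 (Calca variant 2), -0.23 to 0.68 (variant 1), -0.26 to 0.10 (Npy) and -0.36 to 0.26 (Ramp1 variant 3), and at 3 h from -0.30 to 0.22 (downstream Ramp1 probe).

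Over all tested probes, 477 were called at 0 h, against 253 with the strict filter, 2606 with array weights, 1336 without the 21-week arrays and 104 to 1286 with single arrays left out. At 3 h 331 were called, against 138 with no shift, 10470 with no filter, 187 with the strict filter and 161 to 714 with single arrays left out. Past 1 log2 unit without overlap, 3069 probes in KO and 6760 in WT became 1498 and 3379 with normexp, and 1818 and 4246 with the strict filter; in KO 6872 passed without the 21-week arrays. Signal over background limits Calcb, Calcrl and Ramp2, and the resting levels of Calca and Npy. Slide could not be fitted as a term, since no slide held both genotypes. No paired analysis was possible because replicate numbers follow accession order and no label ties arrays to mice.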
